A study of Mus musculus with 12 samples.

Results

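Integrins are cell surface receptors built from 1 alpha and 1 beta subunit that tie the matrix outside the cell to the actin skeleton inside it. The genes described here are the 10 integrin subunits Itga1, Itga5, Itga6, Itga7, Itga8, Itga9, Itgav, Itgb1, Itgb3 and Itgb5, chosen by name. They were followed across the left ventricle of male C57BL/6 mice, on 12 arrays. The labels do not say whether every array is a mouse of its own, so p-values measure the spread between these samples, which may be partly technical. Of the 10, 9 were among the 10435 genes tested, and Itgb3 lay at the floor of the arrays and was not tested. Where a gene had several probe sets, the one whose mean over the 12 arrays was highest stands for it.

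The alpha subunit largely sets which ligand is bound. Itga5, Itga8 and Itgav belong to receptors for matrix proteins such as fibronectin that carry an arginine-glycine-aspartate motif, Itga6 and Itga7 to laminin receptors, and Itga1 to a collagen receptor. Itga9 forms a receptor for tenascin-C, osteopontin and Vcam1. Itgb1 is the common partner of Itga1, Itga5, Itga6, Itga7, Itga8 and Itga9, while Itgav also pairs with Itgb3 and Itgb5. In cardiac muscle integrins sit at the costameres and intercalated discs, where they carry load and pass on mechanical signals, and fibroblasts, vessel cells and leukocytes of the ventricle carry integrins too.

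The 4 groups held 3 arrays each and shared a first operation at 7 weeks of age. The AB group had aortic banding, which narrows the aorta and loads the left ventricle, and was taken 4 weeks later with the band in place. The sAB group had the sham procedure in its place. The DB3 group was banded, had its band removed after 4 weeks and was taken 3 days after that, and sDB3 was the sham procedure followed by the debanding operation at the same times. DB3 and sDB3 therefore had a second operation that AB and sAB did not have. The deposited values are log2 signals per probe set, and on every array between 42.43% and 43.13% of the probe sets exceeded log2 4. Precision is limited by the number of arrays. With 3 arrays on each side the smallest p an exact permutation test can give is 0.1, so calls rest on limma, which pools the spread over genes and groups. P-values are two-sided and adjusted over the 10435 genes, with a threshold of 0.05, and SE and 95% intervals come from the same fit.

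Several measures of the arrays themselves moved with the groups. BioC, a bacterial spike control, had a mean log2 signal of 10.151 to 10.513 on the sAB arrays and 8.276 to 8.603 on the other 9, so that an array effect and the sAB group cannot be told apart. AB was therefore set against sDB3 as well as sAB. For Actb the 3' probe set exceeded the 5' one, a gap that widens as RNA degrades, by 1.025 to 1.133 log2 units on AB arrays, 1.199 to 1.258 on the arrays of both shams and 1.11 to 1.321 on DB3 arrays. The same gap for Gapdh was -0.062 to 0.05 over the 12 arrays and did not separate the groups. The 12 cardiomyocyte markers had a mean of 15.34 to 15.54 on every array. Myl7, an atrial light chain, ranged from 4.67 on DB3 replicate 3 to 12.97 on sDB3 replicate 2, although the labels say that the atria were removed. The mean of the 3 atrial markers Myl7, Myl4 and Sln was 6.14 to 8.43 on sAB, 8.60 to 11.07 on AB, 9.09 to 12.05 on sDB3 and 4.26 to 11.93 on DB3 arrays. Its part in the results was examined only by fitting it as a covariate, which ended 3 of the calls given below. In a whole ventricle, fewer cells of a type and less RNA per cell cannot be told apart.

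The sequences just upstream of 3 members are shown because these members carry the main findings: Itga5 and Itga9 had the largest rises in AB against sAB, and Itgb5 was the member still higher after its removal. RefSeq (GRCm38.p6) promoters were given for 7 of the 10 members, and each line holds the 250 bases before the start, 5' to 3' on the gene's strand. The genome build behind the arrays is not given in the sources used here. Capitals mark GC boxes, searched as GGGCGG on both strands.
Itga5 (chr15:103366792-103367041, minus strand): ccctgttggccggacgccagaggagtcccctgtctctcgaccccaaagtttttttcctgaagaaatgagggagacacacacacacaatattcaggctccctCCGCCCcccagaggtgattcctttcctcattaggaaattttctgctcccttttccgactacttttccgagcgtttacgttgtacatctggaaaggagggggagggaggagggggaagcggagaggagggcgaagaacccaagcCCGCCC
Itga9 (chr9:118711442-118711691, plus strand): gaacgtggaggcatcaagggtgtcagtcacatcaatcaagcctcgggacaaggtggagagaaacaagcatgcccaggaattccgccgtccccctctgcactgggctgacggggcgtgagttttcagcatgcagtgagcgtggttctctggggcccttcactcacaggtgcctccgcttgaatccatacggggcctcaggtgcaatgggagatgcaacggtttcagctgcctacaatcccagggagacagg
Itgb5 (chr16:33829415-33829664, plus strand): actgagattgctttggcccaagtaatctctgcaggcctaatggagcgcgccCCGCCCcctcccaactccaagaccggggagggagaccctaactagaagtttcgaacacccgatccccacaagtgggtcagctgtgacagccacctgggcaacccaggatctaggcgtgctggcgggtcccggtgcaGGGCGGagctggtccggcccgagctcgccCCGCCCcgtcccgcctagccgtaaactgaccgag
The Itga5 window held 2 GC boxes, the Itgb5 window 3 and the Itga9 window 0, and 32.7% of 32851 such windows of mouse genes held at least 1. Of the other motifs searched, the AP-1 motif TGANTCA and the CArG box of serum response factor were in none of the 7 windows (6.75% and 1.47% of all windows). The TEAD motif GGAATG was in that of Itgb1 (12.6% of all windows). A match describes letters only.

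Under the band, 5 of the 9 tested integrin genes were higher than in sAB, where 19.7% of all genes passed (12% higher, 7.69% lower). They were Itga5, Itga9, Itgb5, Itga6 and Itga7. The median log2 difference of the 9 was 0.39, against 0.01 over all genes tested. Set against the later sham sDB3, 6 of the 9 were higher in AB and 0 lower, where 22% of all genes passed (17.3% higher, 4.69% lower). These were Itga1, Itga5, Itga6, Itga9, Itgav and Itgb5, with a median over the 9 of 0.56 against 0.11 over all genes. Both comparisons use the same AB arrays. The AB arrays lay wholly apart from the sAB arrays for 6 of the 9 (42.1% of all genes) and from the sDB3 arrays for 7 of the 9 (43% of all genes). Itga5, Itga6, Itga9 and Itgb5 passed in both. Their calls in both comparisons held in each alternative run. Where every probe set was tested, this refers to the representing one. Another probe set of Itga6 did not pass against sAB, and another of Itga9 passed against neither sham, as given below. The integrin members passing in AB against sAB were 5 higher and 0 lower after quantile normalization and after median centring too. Over all genes the higher share of calls depended on scaling. It was 61% as deposited, 49.7% after quantile normalization and 50.3% after median centring against sAB, and 78.7%, 54% and 35.9% against sDB3.

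**Figure D1:**
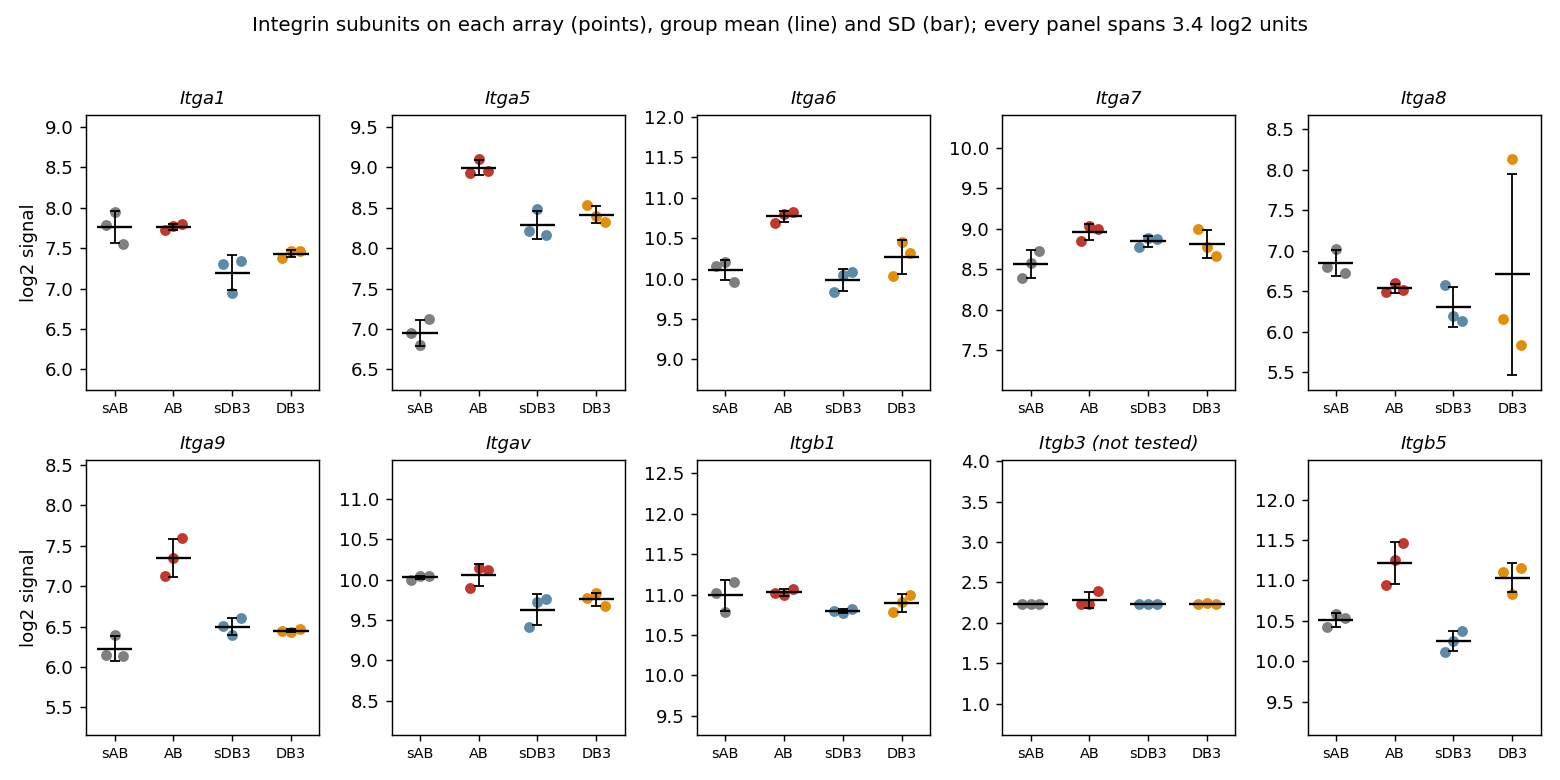
Log2 signal (y axis) of the 10 integrin subunits on each of the 12 arrays, 3 per group (x axis), with group mean and SD; every panel spans the same range of log2 units. Itga5 is lowest on the 3 sAB arrays (6.80 to 7.12), Itga9 is high only on the AB arrays (7.12 to 7.59), Itgb5 is high on AB and DB3 arrays, and DB3 replicate 2 stands alone for Itga8 (8.13).

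Itga5, the alpha subunit of the main fibronectin receptor, had the largest range over the 4 group means among the members (2.04). Its log2 signals were 6.95, 6.80 and 7.12 in sAB, 8.93, 9.10 and 8.96 in AB, 8.21, 8.48 and 8.16 in sDB3, and 8.53, 8.40 and 8.32 in DB3. The 3 sAB arrays lay below the other 9 and the 3 AB arrays above the other 9, while sDB3 and DB3 overlapped. Over all genes 10% had all AB arrays apart from the other 9. Itga5 rose 4.12-fold in AB against sAB (2.04 ± 0.11 in log2 units, with the SE and 3 arrays in each group; limma adjusted p = 3.76e-06). Against sDB3 the rise was 1.64-fold (0.71 ± 0.11, limma adjusted p = 0.00206). The 2 shams themselves differed: Itga5 was 2.51-fold higher in sDB3 than in sAB (1.33 ± 0.11, limma adjusted p = 0.000133). Of the 9 members tested it alone had all 3 sAB arrays apart from the other 9, as 13% of all genes did. The size of the rise under the band thus depends on the sham. A second probe set gave 1.28 ± 0.13 against sAB, 0.63 ± 0.13 against sDB3 and 0.65 ± 0.13 between the shams, at a mean of 4.63. The other 2 probe sets of Itga5 were at the floor (means of 2.25 and 2.26).

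After debanding Itga5 was lower than under the band (-0.58 ± 0.11, limma adjusted p = 0.00931) and differed from sDB3 by 0.13 (95% interval -0.11 to 0.37, limma adjusted p = 0.475). The overload effect, each banded group minus its own sham, was smaller after debanding by 1.91 ± 0.15 log2 units (limma adjusted p = 0.000211). That value is the -0.58 between DB3 and AB minus the 1.33 by which sDB3 exceeded sAB. For this probe set most of it comes from the difference between the shams. The second probe set gave -1.33 ± 0.18, with -0.68 ± 0.13 between DB3 and AB and 0.65 ± 0.13 between the shams, in about equal parts. By likeness of the 12 centred values, the genes most like Itga5 were Ace, Cygb, Palm, Ncstn and Lbh, with mean absolute differences of 0.202 to 0.25 log2 units, where Itga5 deviated from its own mean by 0.603. Ace encodes the angiotensin-converting enzyme, Cygb cytoglobin and Ncstn a subunit of gamma-secretase. All 5 had their lowest group mean in sAB, as with Lbh at 10.77 in sAB, 12.66 in AB, 12.55 in sDB3 and 12.63 in DB3, and these genes share arrays and the sAB split with Itga5.

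Itga9 was high on the AB arrays alone. Its log2 signals were 6.15, 6.40 and 6.13 in sAB, 7.12, 7.35 and 7.59 in AB, 6.51, 6.39 and 6.60 in sDB3, and 6.45, 6.43 and 6.47 in DB3. All AB arrays lay above the other 9 (10% of all genes had all AB arrays apart), and the remaining groups lay close together. Itga9 was 2.19-fold higher in AB than in sAB (1.13 ± 0.12, limma adjusted p = 0.000203) and 1.81-fold higher than in sDB3 (0.85 ± 0.12, limma adjusted p = 0.00121). It was lower in DB3 than in AB (-0.91 ± 0.12, limma adjusted p = 0.00197), and its difference to sDB3 was -0.05 (95% interval -0.31 to 0.20). The overload effect fell by 1.18 ± 0.16 between the 2 contrasts (limma adjusted p = 0.0057). Of its 3 tested probe sets, the second gave 0.89 ± 0.15 against both shams. The third and dimmest (mean 4.16) gave 0.45 ± 0.16 and 0.27 ± 0.16, which did not pass when each probe set was tested (adjusted p = 0.0626 and 0.239).

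The genes most like Itga9 over the 12 arrays were Enah, Cspg4, Plekho1, Rrp12 and Gpr153, at mean absolute differences of 0.11 to 0.129 log2 units, where Itga9 deviated from its own mean by 0.361. Enah regulates actin filament growth and Cspg4 is a proteoglycan of pericytes. Enah had means of 11.19 in sAB, 12.20 in AB, 11.39 in sDB3 and 11.49 in DB3. Of the ligands of Itga9, tenascin-C and osteopontin (Tnc and Spp1) were not among the genes tested. Vcam1 differed by 0.19 ± 0.26 in AB against sAB and 0.33 ± 0.26 against sDB3, without passing.

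Itgb5, the beta subunit that pairs with Itgav in a vitronectin receptor, was the only one of the 9 tested members to pass in DB3 against sDB3, where 6.36% of all genes passed (5.37% higher, 0.997% lower). The arrays of both groups did not overlap for 2 of the 9, Itga1 and Itgb5 (28.1% of all genes). The higher share of calls over all genes was 84.3% as deposited, 52.2% after quantile normalization and 26.7% after median centring, and Itgb5 was higher under each. Its log2 signals were 10.42, 10.58 and 10.53 in sAB, 10.94, 11.25 and 11.46 in AB, 10.12, 10.25 and 10.37 in sDB3, and 11.11, 10.83 and 11.16 in DB3. Every array of the 2 banded groups lay above every sham array, and the 3 sDB3 arrays lay below the other 9 (7.73% of all genes had all sDB3 arrays apart). The shams differed by -0.26 ± 0.13, which did not pass (limma adjusted p = 0.183). Between the shams its other probe sets gave 0.03 ± 0.093, 0.01 ± 0.12 and -0.15 ± 0.11, so the low sDB3 arrays are a trait of the representing probe set. Itgb5 was 1.63-fold higher in AB than in sAB (0.71 ± 0.13, limma adjusted p = 0.00462), 1.96-fold higher than in sDB3 (0.97 ± 0.13, limma adjusted p = 0.00121) and 1.72-fold higher in DB3 than in sDB3 (0.79 ± 0.13, limma adjusted p = 0.0161). DB3 and AB differed by -0.18 (95% interval -0.47 to 0.11), and the 2 overload effects by 0.08 (95% interval -0.33 to 0.49, limma adjusted p = 0.833). All 4 probe sets passed in the 3 comparisons, at 0.59 to 0.73 against sAB, 0.67 to 0.97 against sDB3, and 0.62 to 0.79 in DB3 against sDB3. In a fit of only the DB3 and sDB3 arrays, where 0 of 10435 genes passed and 2137 had an unadjusted p under 0.05, Itgb5 had an adjusted p of 0.0784 at the same difference.

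Itgav, the alpha partner of Itgb5, gave a different pattern. Its log2 signals were 10, 10.04 and 10.04 in sAB, 9.90, 10.15 and 10.12 in AB, 9.41, 9.72 and 9.76 in sDB3, and 9.77, 9.83 and 9.67 in DB3. The arrays of sAB and AB overlapped, and those taken after the second operation all lay below them. Itgav in AB differed from sAB by 0.03 (95% interval -0.19 to 0.26). It was 1.35-fold higher than in sDB3 (0.43 ± 0.10, limma adjusted p = 0.0148) and was lower in sDB3 than in sAB (-0.40 ± 0.10, limma adjusted p = 0.0244). Its other tested probe set passed in neither, at 0.44 ± 0.18 (adjusted p = 0.0935) and -0.13 ± 0.18 (0.633). Both calls were lost after median centring (0.28 with an adjusted p of 0.0801, and -0.29 with 0.089). The first was also lost when AB replicate 2 or 3 was left out (adjusted p no higher than 0.0589) and in a fit of only AB and sDB3 (0.0565), and the second without sAB replicate 2, sAB replicate 3 or sDB3 replicate 1 (up to 0.0638), with the atrial covariate (0.0679), with the mean of the gene's probe sets (-0.26, adjusted p = 0.147) and under 3 further alternatives.

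Itgb3, another partner of Itgav and the beta subunit of the platelet fibrinogen receptor, was at 2.23 to 2.40 on every array with its higher probe set, at the floor. Itga2b, the alpha subunit of that platelet receptor, had no array above 2.35. Signals at the floor give no order between groups.

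**Figure D2:**
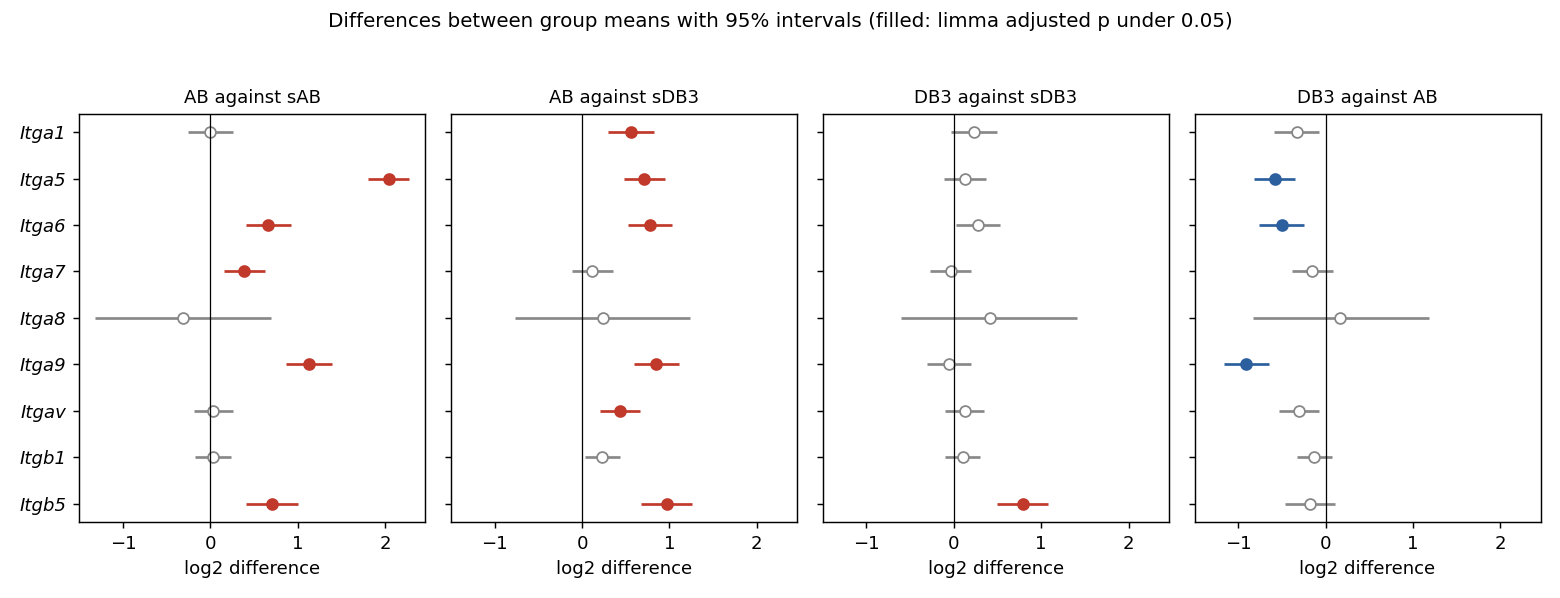
Log2 difference between group means (x axis) with 95% interval for the 9 tested members (y axis) in 4 comparisons, filled where limma's adjusted p was under 0.05. Itga5 and Itga9 are higher in AB and return towards sDB3 in DB3, while Itgb5 alone is filled in DB3 against sDB3 (0.79).

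Of the laminin receptor subunits, Itga6 moved more than Itga7. The log2 signals of Itga6 were 10.16, 10.20 and 9.96 in sAB, 10.69, 10.80 and 10.82 in AB, 9.83, 10.05 and 10.08 in sDB3, and 10.03, 10.45 and 10.32 in DB3. The AB arrays lay above the other 9 (10% of all genes had all AB arrays apart), and DB3 overlapped with both shams. Itga6 was 1.58-fold higher in AB than in sAB (0.66 ± 0.12, limma adjusted p = 0.00325) and 1.72-fold higher than in sDB3 (0.78 ± 0.12, limma adjusted p = 0.0018). It was lower in DB3 than in AB (-0.50 ± 0.12, limma adjusted p = 0.0229), and DB3 against sDB3 gave 0.28 (95% interval 0.02 to 0.53, limma adjusted p = 0.16). The call of DB3 against AB was lost on leaving out AB replicate 2, AB replicate 3 or DB3 replicate 1 (highest adjusted p 0.0881), with no filter (0.0577) and in a fit of only both groups (0.0597). The second probe set gave 0.31 ± 0.15 against sAB, which did not pass, and 0.69 ± 0.15 against sDB3, which did.

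Itga7, the laminin receptor alpha subunit of mature muscle, had log2 signals of 8.39, 8.58 and 8.73 in sAB and 8.85, 9.03 and 9.0 in AB. Its signals were 8.77, 8.89 and 8.88 in sDB3 and 9.0, 8.77 and 8.67 in DB3, so that the sAB arrays lay below those of AB and of sDB3 but overlapped with DB3. Itga7 was 1.31-fold higher in AB than in sAB (0.39 ± 0.11, limma adjusted p = 0.0264) and differed from sDB3 by 0.11 (95% interval -0.12 to 0.35). The call against sAB was lost on leaving out any one of sAB replicates 1 and 2 and AB replicates 2 and 3 (highest adjusted p 0.0929), with the atrial covariate (0.0719) and with no filter on dim probe sets (0.0574).

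Itga1, the alpha subunit of a collagen receptor, had log2 signals of 7.79, 7.95 and 7.55 in sAB, 7.72, 7.77 and 7.80 in AB, 7.30, 6.95 and 7.34 in sDB3, and 7.38, 7.46 and 7.46 in DB3. The sDB3 arrays lay below the other 9, as for the representing probe set of Itgb5. Itga1 was lower in sDB3 than in sAB (-0.56 ± 0.12, limma adjusted p = 0.0114) and higher in AB than in sDB3 (0.56 ± 0.12, limma adjusted p = 0.00856), but AB and sAB differed by 0.00 (95% interval -0.26 to 0.26). The call between the shams was lost with the atrial covariate (-0.49, adjusted p = 0.0575) and in a fit of only the shams (0.0722). Its second probe set gave -0.38 ± 0.19 between the shams, which did not pass (adjusted p = 0.152), and 0.60 ± 0.19 in AB against sDB3, which did (0.0356). DB3 against sDB3 gave 0.23 (95% interval -0.03 to 0.49).

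Itgb1, the shared partner, had the smallest range over the group means of the 9 tested members (0.23). The log2 signals of Itgb1 were 11.02, 10.79 and 11.16 in sAB, 11.02, 10.99 and 11.07 in AB, 10.80, 10.77 and 10.82 in sDB3, and 10.78, 10.91 and 11 in DB3. It passed in none of the 6 comparisons. AB differed from sAB by 0.03 (95% interval -0.17 to 0.24, limma adjusted p = 0.831) and from sDB3 by 0.23 (95% interval 0.03 to 0.43, limma adjusted p = 0.0986). Its other 2 tested probe sets gave 0.00 and -0.03 against sDB3. It passed between the shams without sAB replicate 2 (-0.30, adjusted p = 0.0479) and against sDB3 in a fit of only AB and sDB3 (0.23, adjusted p = 0.0452).

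**Figure D3:**
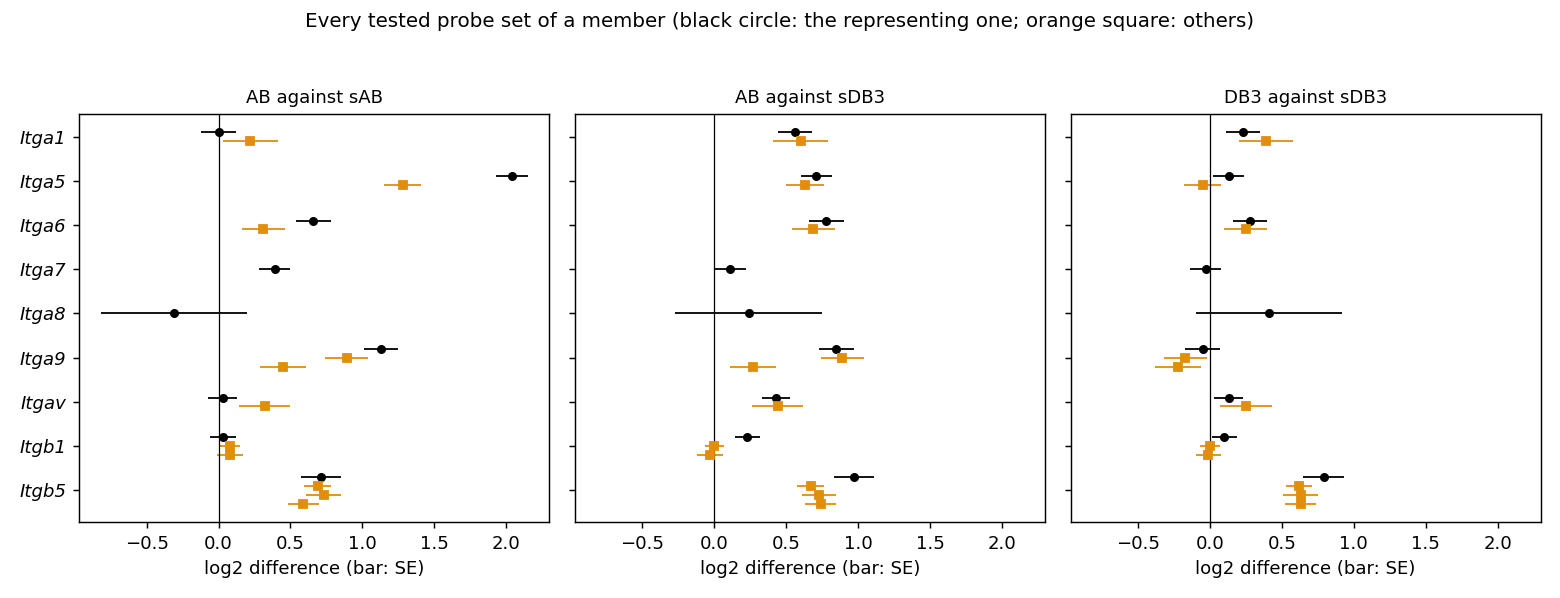
Log2 difference with its SE (x axis) for every tested probe set of the 9 members (y axis) in 3 comparisons; black circles represent the gene and orange squares are its other probe sets. The 4 probe sets of Itgb5 lie together between 0.59 and 0.97 in all 3 panels, whereas those of Itga5 lie apart against sAB (2.04 and 1.28) and close against sDB3 (0.71 and 0.63).

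Itga8, an alpha subunit found on mesenchymal and smooth muscle cells, passed in no comparison, and 1 array set its spread. Its log2 signals were 6.80, 7.02 and 6.72 in sAB, 6.49, 6.60 and 6.51 in AB, 6.58, 6.19 and 6.13 in sDB3, and 6.16, 8.13 and 5.83 in DB3. All AB and sDB3 arrays lay below those of sAB. DB3 replicate 2 lay 1.11 log2 units above the next highest array, a gap that 12 of the 10435 genes reached on that array, Itga8 included. Its second probe set was at 4.01 on the same array (mean over the 12 arrays 2.45). Genes of other tissues stood apart there too: Krt18, an epithelial keratin, was at 7.28 against at most 4.42 elsewhere. Rag1, a gene of developing lymphocytes, was at 6.79 against at most 4.82, and Adipoq, a fat cell hormone, at 6.50 against at most 5.28. Cnn1, a smooth muscle gene, was at 7.17 against at most 5.92. These markers were chosen after their values were seen, and their part in the Itga8 value was not tested. Without DB3 replicate 2 the spread of Itga8 fell, and Itga8 was lower in sDB3 than in sAB (-0.55 ± 0.14, limma adjusted p = 0.0271), where the fit of all arrays gave -0.55 ± 0.46 (limma adjusted p = 0.417).

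After debanding, 3 of the 9 integrin genes were lower in DB3 than in AB and 0 higher, where 9.16% of all genes passed (4.04% higher, 5.12% lower). They were Itga5, Itga6 and Itga9. The difference of the overload effects passed for 2 of the 9, Itga5 and Itga9, both with a smaller effect after debanding (6.04% of all genes passed, 3.45% higher and 2.59% lower). Between the shams, 1 was higher in sDB3 (Itga5) and 2 lower (Itga1 and Itgav), where 17.8% of all genes passed (5.49% higher, 12.3% lower), and 6 of the 9 did not overlap (36.9% of all genes). Between DB3 and AB 5 of the 9 did not overlap (32.3% of all genes). No member had all 3 DB3 arrays apart from the other 9, as 5.4% of all genes had. The higher share of all calls was 57.1%, 41.7% and 26.2% for the difference of the effects as deposited, after quantile normalization and after centring, and 30.8%, 49.1% and 68.7% between the shams. The F test over the 4 groups passed for 6 of the 9 (37.2% of all genes), with Itga5 at rank 8 and Itga9 at rank 128 of the 10435 genes by p-value.

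Of the 16 other integrin subunits listed, 4 were tested: Itga3, Itgb2, Itgb6 and Itgb8. Itgb6 and Itgb8 passed in no comparison. Itga3, which forms another laminin receptor, was higher in AB than in sAB (0.48 ± 0.098, limma adjusted p = 0.00672) and in sDB3 than in sAB (0.58 ± 0.098, limma adjusted p = 0.00518), and AB and sDB3 differed by -0.09. Itgb2, the beta subunit of leukocyte integrins, was lower in sDB3 than in sAB (-0.85 ± 0.26, limma adjusted p = 0.0451). Its leukocyte alpha partners Itgam, Itgal and Itgax did not pass the filter on dim probe sets, with no array above 4.6, 3.73 and 2.94. In sDB3 against sAB 0 of the 14 macrophage markers were higher and 2 lower, Ptprc (-0.95) and Cd14 (-0.77), with a median log2 difference of -0.49. Over all genes 5.49% were higher and 12.3% lower there, with a median of -0.09. The part of the macrophage markers in the Itgb2 value was not tested. In AB against sAB 1 macrophage marker was higher and 0 lower, where 12% of all genes were higher and 7.69% lower. The median of these markers was -0.30, against 0.01 over all genes.

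The matrix ligands of integrins were a list of 32 genes, 25 of them measured, counted gene by gene with no test of the list. In AB against sAB 15 rose and 0 fell, where 12% of all genes were higher and 7.69% lower. The median log2 difference was 0.75, against 0.01 over all genes. In AB against sDB3 13 rose and 1 fell, where 17.3% of all genes were higher and 4.69% lower (median 0.60 against 0.11). The largest rises against sAB were those of Ccn2 (2.13 ± 0.34) and Postn (1.91 ± 0.34), matricellular proteins, the collagen gene Col1a1 (1.76 ± 0.47) and Tgfb1 (0.98 ± 0.12), whose latent form is held and activated by Itgav receptors. Against sDB3, Ccn2 (1.74) and Postn (2.28) passed, while Col1a1 (1.19, limma adjusted p = 0.0958) and Tgfb1 (0.35, limma adjusted p = 0.0589) did not. Tgfb1 was higher in sDB3 than in sAB (0.63, limma adjusted p = 0.00738). Fn1, the fibronectin that Itga5 binds, differed by 0.74 ± 0.40 against sAB and 1.07 ± 0.40 against sDB3 and did not pass in either. The genes of basement membrane, the laminin-rich layer that Itga6 and Itga7 bind, included Col4a2 (0.82 ± 0.068), Hspg2 (0.84 ± 0.091) and Lamc1 (0.75 ± 0.096) among the rises against sAB. The laminin alpha chains Lama2 (0.27 ± 0.088), Lama4 (-0.02 ± 0.092) and Lama5 (-0.27 ± 0.11) did not pass there. Lama2 was higher in AB than in sDB3 (0.33 ± 0.088), and Lama4 did not pass. Against sDB3, Col4a2 (0.77) and Lamc1 (0.41) passed too, and Hspg2 did not (0.19, limma adjusted p = 0.155), being higher in sDB3 than in sAB (0.65, limma adjusted p = 0.00228). In DB3 against sDB3, 1 of the 25 passed, where 6.36% of all genes did, and the list median was 0.14 against 0.09 over all genes. It was Lama5, a laminin alpha chain, at 0.43 ± 0.11. Lama5 was lower in AB than in sDB3 (-0.42 ± 0.11) and higher in DB3 than in AB (0.86 ± 0.11), against the direction of the other ligands that changed. In DB3 against AB, 9 of the 25 were lower and 1 higher, where 5.12% of all genes were lower and 4.04% higher. The largest falls that passed were those of Postn (-1.91), Emilin1 (-1.08) and Col4a1 (-1.07).

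Adaptors and kinases that couple integrins to actin were a list of 49 genes, 43 measured. In AB against sAB 18 rose and 1 fell, where 12% of all genes were higher and 7.69% lower (median 0.22 against 0.01). In AB against sDB3 12 rose and 0 fell, where 17.3% of all genes were higher and 4.69% lower (median 0.21 against 0.11). Against sAB the focal adhesion kinase relative Ptk2b rose by 1.33 ± 0.16 and the scaffold Git1 by 1.04 ± 0.097. Zyx, zyxin, rose by 0.89 ± 0.17 and Flnc, the muscle filamin, by 0.84 ± 0.11. Tln1, the talin that binds beta tails, rose by 0.76 ± 0.085, and Ilk, integrin-linked kinase, by 0.44 ± 0.086. Against sDB3 these genes passed too, at 1.29 for Ptk2b, 0.37 for Git1 and 0.53 for Zyx. Flnc gave 0.47, Tln1 0.46 and Ilk 0.38, so most of these rises were smaller against sDB3. The gene that fell against sAB was Itgb1bp2, melusin, a muscle protein that binds the Itgb1 tail (-0.30 ± 0.076, limma adjusted p = 0.0197). In AB against sDB3 it did not pass (-0.18, limma adjusted p = 0.118). It was also lower in DB3 than in sDB3 (-0.36 ± 0.076, limma adjusted p = 0.0287). Besides it, Ptk2b (0.77 ± 0.16) and Tns2, a tensin (0.46 ± 0.10), passed in DB3 against sDB3, both higher. In that comparison 6.36% of all genes passed. The difference of the overload effects passed for 5 of the 43, all negative, where 3.45% of all genes passed higher and 2.59% lower. They were Flnc (-1.08 ± 0.16), Git1 (-0.68 ± 0.14), Tln1 (-0.54 ± 0.12), Vasp (-0.51 ± 0.092) and Actn2 (-0.33 ± 0.079). Of these, Flnc and Vasp were also lower in DB3 than in AB (-0.71 and -0.31, limma adjusted p = 0.00512 and 0.0159). Git1, Tln1 and Actn2 did not pass in DB3 against AB (-0.02, -0.24 and -0.12) and were higher in sDB3 than in sAB (0.67, 0.30 and 0.21), so the larger share of their values comes from the shams.

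The dystrophin and dystroglycan complex, the other laminin linkage of the muscle membrane, had list medians of -0.02 in AB against sAB and 0.02 in AB against sDB3. Over all genes the medians were 0.01 and 0.11. Of 12 measured genes, 0 rose and 1 fell in AB against sAB (Sgce, -0.24 ± 0.073), where 12% of all genes were higher and 7.69% lower. In AB against sDB3 2 rose (Sntb1 and Utrn) and 1 fell (Pomt1, -0.38 ± 0.099), where 17.3% of all genes were higher and 4.69% lower. The largest change was in the syntrophin Sntb1, at 1.21 ± 0.17 in AB against sDB3 and 0.68 ± 0.17 in DB3 against sDB3, both passing. Sntb1 was also lower in sDB3 than in sAB (-0.95 ± 0.17).

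**Figure D4:**
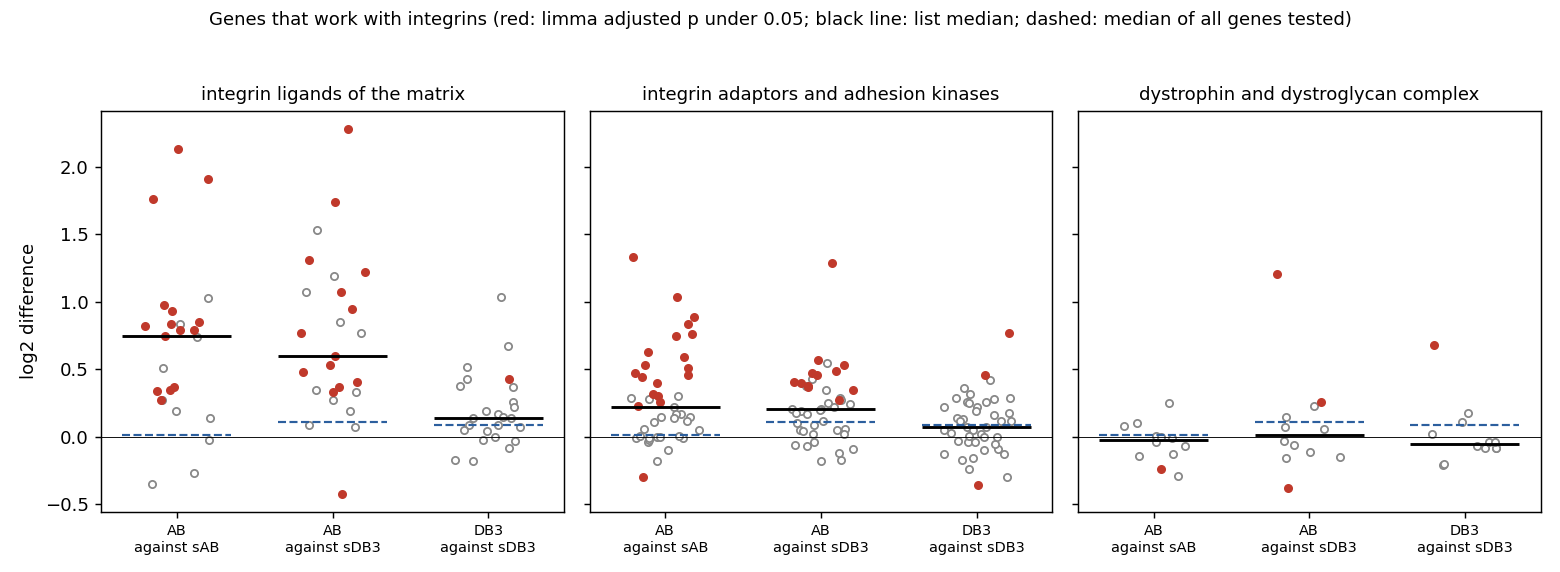
Log2 difference (y axis) of each measured gene of 3 lists in 3 comparisons (x axis), red where limma's adjusted p was under 0.05, with the list median (black) and the median of all genes tested (dashed). Ligands have medians of 0.75 and 0.60 in the AB comparisons and 0.14 in DB3 against sDB3, and the dystrophin complex has medians of -0.02, 0.02 and -0.06, with Sntb1 at 1.21 in AB against sDB3.

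Markers of the cells that carry these integrins were counted in the same comparisons. Over all genes 12% were higher and 7.69% lower in AB against sAB, with a median of 0.01. In AB against sDB3 17.3% were higher and 4.69% lower, with a median of 0.11. Of 13 endothelial markers, 3 were higher in AB than in sAB and 7 higher than in sDB3 (medians 0.21 and 0.34), and the mean of the list was 9.31 to 9.44 on AB arrays, 9.10 to 9.17 on sAB and 8.87 to 9.04 on sDB3 arrays. Of 12 smooth muscle and pericyte markers, 4 were higher and 1 lower in each of these comparisons, with list means of 10.19 to 10.34 on AB, 9.78 to 10.14 on sAB and 9.96 to 10.34 on sDB3 arrays. Of 12 fibroblast markers, 1 and 3 were higher and 0 lower, with list means of 10.78 to 11.08, 10.41 to 11.11 and 10.43 to 10.48 on the same arrays. Of 12 cardiomyocyte markers, 0 passed against sAB and 3 were lower against sDB3. In DB3 against sDB3, where Itgb5 was higher, the counts higher were 1 endothelial, 1 smooth muscle and pericyte and 2 fibroblast markers (5.37% of all genes). The gene of the smooth muscle and pericyte list was Des, desmin, which was also higher in both AB comparisons. Acta2, Tagln, Myh11, Cnn1 and Mylk of that list passed in none of these comparisons. Of 10 platelet markers 2 were measured and 0 passed in these comparisons. The part of these cell types in the integrin values was not tested.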

How the data were processed

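Total RNA of the left ventricle was hybridised to Affymetrix arrays as biotin-labelled cRNA, per the labels' protocols. The authors deposited log2 signals per probe set, made with GCRMA per the submitters' processing notes. Its settings are not stated in the labels. The replicate number only names an array.

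Probe sets were named from the platform annotation (34945 of 45101 with 1 symbol). Those above log2 4 on at least 3 of 12 arrays were kept (31 member probe sets, 20 kept), and the one with the highest mean represents a gene, giving 10435 genes. 1 model of the 4 groups was fitted by lmFit and eBayes (limma 3.58.1, R 4.3.3), with 8 residual and 2.68 prior degrees of freedom and Benjamini-Hochberg adjustment. Alternatives changed the filter, the probe set rule, the scaling, the arrays and the moderation, 1 at a time. The fit was tested on simulated data. The members and lists were chosen with earlier results of these data known. All members are named. Of the other lists only some of the genes that passed are named, and these are not always the ones with the largest change. Likeness used the 2 members with the smallest F test p. Other genes were named after their values were seen.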

Additional observations from a re-analysis of the deposited data

Results flagged for a closer look

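Of the integrin members, 2 had an overload effect that differed between the contrast with the band in place and the contrast 3 days after its removal, by the limma test of that difference. For Itga5 the difference was -1.91 log2 units (limma adjusted p = 0.000211, n = 3 per group). With its representing probe set most of it came from the shams. There sDB3 exceeded sAB by 1.33, and DB3 differed from AB by -0.58. The second probe set gave -1.33, with 0.65 between the shams and -0.68 between DB3 and AB. For Itga9 the difference was -1.18 (limma adjusted p = 0.0057). There DB3 differed from AB by -0.91, and sDB3 exceeded sAB by 0.28. The cause was not tested.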

How the results depend on the processing

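No paired analysis was possible because the labels give no replicate numbers shared between groups. Of 920 values of single members under the alternatives, 884 kept their direction or stayed without a call on the same side of the threshold, 27 lost their call, 9 gained one and 0 reversed. Where every probe set was tested, the value of the representing one was used. In a fit of only the groups compared, the integrin members passing were 0 in DB3 against sDB3 and 1 in sDB3 against sAB, where the fit of all 12 arrays gave 1 and 3. With the atrial marker level as a covariate, added after seeing the data, 1 passed in sDB3 against sAB. When 1 array was left out the integrin members passing ranged from 4 to 5 in AB against sAB, 1 to 1 in DB3 against sDB3, 2 to 2 in the difference of effects, 2 to 4 in sDB3 against sAB, 2 to 4 in DB3 against AB, 5 to 6 in AB against sDB3 and 6 to 7 in the F test. Over all genes the same fits gave 1139 to 2119, 170 to 535, 152 to 567, 967 to 1945, 365 to 1031, 1124 to 2354 and 2727 to 3746 genes, against 2058, 664, 630, 1861, 956, 2298 and 3881 with all arrays. Itga7 passed in the difference of effects after median centring (-0.52, adjusted p = 0.0456). Centring also made Itga7 and Itga9 pass between the shams (0.39 each). Other settings moved the count over all features by over 1.5 times. Testing every probe set, 17817 features in place of 10435, gave 3391, 976, 2987 and 6136 calls in AB against sAB, the difference, the shams and the F test, more calls over more features. No filter gave 323 in DB3 against sDB3 and 338 in the difference. In DB3 against sDB3 quantile normalization gave 203 and the unmoderated analysis 427. The covariate gave 203 in DB3 against sDB3, 138 in the difference and 895 between the shams. A fit of only the groups compared gave 0 in DB3 against sDB3, 571 between the shams and 629 in DB3 against AB. As deposited, the median of all genes was 0.108 in AB against sDB3, 0.091 in DB3 against sDB3 and -0.094 between the shams, and after centring -0.042, -0.038 and 0.016. The causes of the other changes were not tested. Signals near the floor limit what can be said of Itgb3 and of the dim probe sets.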
